A study of Arabidopsis thaliana with 8 samples.

Results

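The RAP2.4 group comprised 8 Arabidopsis thaliana genes, namely RAP2.4 (AT1G78080) and its close relatives AT1G22190, AT2G22200, AT4G39780, AT1G36060, AT1G64380, AT4G13620 and AT5G65130. All 8 loci were found among the 27415 genes of the deposited tables, and all 8 had enough coding reads to enter the tests, which covered 19823 genes. The genes were chosen by family relationship together with their coding and untranslated reads and their ribosome-protected reads per mRNA in dark and light, so those ratios are given here as a description without a test. The light comparisons of mRNA and of ribosome-protected mRNA were tested. The study measured steady-state mRNA and ribosome-protected mRNA, the fragments left after RNase I digestion of polysome extracts, in wild-type Columbia-0 seedlings. All seedlings grew for 4 days in darkness, and they were then either exposed to white light for 4 h or kept without light. This gave 4 groups (ribosome-protected after light, ribosome-protected dark, mRNA after light, mRNA dark) of 2 libraries each, numbered repeat 1 and repeat 2. What a repeat number marks is not given by the labels, and p-values here therefore reflect only how these libraries vary, which may be technical variation.

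ERF factors are plant transcription factors that bind DNA through a conserved AP2 domain, and the RAP2.4 group belongs to the subfamily that the reference annotation lists as DREB A-6. RAP2.4 acts in light and ethylene signalling, and under the name WIND1 it is known for promoting cell dedifferentiation at wounds. AT1G22190 carries RAP2.4 as a synonym in the reference annotation and is its closest relative, while the annotation gave the other 6 loci as AP2-domain DNA-binding proteins without a symbol. How much protein an mRNA yields depends partly on its 5' leader, since scanning ribosomes can meet upstream start codons there before they reach the coding sequence.

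The AP2 domain was 57 residues long in all 8 predicted proteins, computed by translating the coding sequences of the reference assembly TAIR10.1. AT1G22190 matched RAP2.4 at 100% of domain residues, although the whole proteins, of 261 residues in AT1G22190 and 334 in RAP2.4, were 69.3% identical. Domain identity to RAP2.4 was 94.7% in AT1G36060, 93.0% in AT4G39780 and between 84.2% and 86.0% in the other four. The first 30 coding bases of the domain (reference assembly, 5' to 3' on the coding strand) are shown because they mark how closely each gene follows RAP2.4, and capitals mark bases that differ from it.
RAP2.4, chr1:29365243-29365272, plus strand: tacagaggtgtgaggcaacgtcactgggga
AT1G22190, chr1:7836491-7836520, plus strand: tacagaggAgtgagAcaacgtcactgggga
AT1G36060, chr1:13455207-13455236, minus strand: taTagaggAgtgaggcaaAgAcaTtgggga
AT4G39780, chr4:18458729-18458758, minus strand: taTagaggAgtTagAcaaAgGcactgggga
AT2G22200, chr2:9443968-9443997, minus strand: tacagaggCgtAaggcaaAgGcactggggG
AT1G64380, chr1:23891554-23891583, minus strand: tacagaggAgtgaggcaGAgAcaTtgggga
AT4G13620, chr4:7932831-7932860, plus strand: taTagaggAgtgagAcaaAgAcactggggC
AT5G65130, chr5:26017733-26017762, plus strand: tacCgaggCgtAagAcaGAgGcaAtggggT
AT1G22190 differed from RAP2.4 at 2 of these 30 bases, the other six at 5 to 9. The 8 genes lay on chromosomes 1, 2, 4 and 5, each had 1 exon, and none overlapped another annotated gene. The longest identical run of coding bases between RAP2.4 and AT1G22190 was 46 bases, and 27 of the 978 words of 28 bases, about a ribosome footprint, in RAP2.4 also occurred in another member. Reads from those words could be assigned to either gene, while the remaining coding words of RAP2.4 occurred in no other member.

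The mRNA leaders set 3 genes of the group, with more than 400 bases each, apart from the other five. By the deposited region lengths, the leader was 669 bases in AT1G36060, 541 in RAP2.4 and 463 in AT1G22190, placing them at the 99.6th, 98.7th and 97.8th percentile of 17991 tested genes whose leader could be scanned in the reference. The leader was 216 bases in AT2G22200, 185 in AT1G64380, 146 in AT4G39780 and 27 in AT5G65130, and AT4G13620 had 0 in the deposited lengths. The median leader was 103 bases, so AT2G22200, AT1G64380 and AT4G39780 still had leaders above it, at percentiles 82.3, 76.6 and 66.8. The reference annotation gave RAP2.4 an even longer leader of 718 bases. Upstream ATGs were searched in the deposited leader only. The further bases of longer reference leaders, as in RAP2.4 and AT4G39780 (223 bases), were not searched. An upstream ATG occurred once in the deposited RAP2.4 leader, opening a reading frame of 26 codons 280 bases before the main start. It also occurred once in AT1G22190, where the frame had 2 codons. AT1G36060 held 6 upstream ATGs with frames of 4 to 21 codons, where the frame of 16 codons lay within that of 21. AT4G39780 held 1 with a frame of 2 codons, and none was found in AT2G22200 or AT1G64380. All of these frames ended before the main start. The bases around the main start codon, with the ATG in capitals, are shown for the 3 long-leader genes because the ribosome must select this ATG after the long leader.
RAP2.4, chr1:29364778-29364798, plus strand: tttttattttaaATGgcagct
AT1G22190, chr1:7836233-7836253, plus strand: tttttattagaaATGacaact
AT1G36060, chr1:13455654-13455674, minus strand: caggaaactccgATGgcggat
The base 3 positions before the ATG was T in RAP2.4, G in AT1G22190 and C in AT1G36060, and T also in AT4G39780, C in AT2G22200 and A in AT1G64380.

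Coding reads numbered 4617343 and 40972194 in the ribosome-protected libraries after light, 4843438 and 14974871 in the ribosome-protected dark libraries, and 30997341 to 37245819 in the mRNA libraries. The ribosome-protected libraries of repeat 1 were thus the shallowest. Levels are given as CPM (reads scaled to a common library size) scaled by TMM, and comparisons between genes as CPM per kb of coding length. The known markers went with the labels: LHCB1.3, a light-harvesting protein, had 1644 and 2491 CPM of mRNA after light, against 69.8 and 496 CPM in the dark, and PORA, the dark-grown form of protochlorophyllide oxidoreductase, had 4.31 and 8.39 CPM after light, against 83.3 and 563 CPM in the dark. Neither passed in mRNA (edgeR adjusted p = 0.192 for LHCB1.3 and 0.0815 for PORA). In all, 0 of 3 light markers and 0 of 2 dark-grown markers passed there, where DESeq2 called 2 and 2. A gene that does not pass here is therefore not shown to be unchanged. The material was whole seedlings, in which fewer cells of a type and less RNA per cell cannot be told apart. Some markers of other cell types differed with light as well. Of 3 root markers 1 passed in mRNA, PIN2, which fell by 1.92 on the log2 scale (SE 0.32, edgeR adjusted p = 0.0262), while the sum of the 3, nearly all of it PYK10, was 5406 and 14572 CPM after light, against 3127 and 8633 CPM in the dark. Of 4 stomatal lineage markers 0 passed in mRNA (1 at an unadjusted p under 0.05, 1 by DESeq2), their median log2 change was 2.39, and their sum was 7.8 and 13.1 CPM after light, against 2.76 and 4.3 CPM in the dark. The mesophyll marker RBCS1A had 3262 and 4696 CPM of mRNA after light, against 384 and 1677 CPM in the dark, and did not pass. The part of these markers in the results below was not tested.

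RAP2.4 was by far the most abundant mRNA of the group, and its mRNA stood at the 95.5th percentile of tested genes per kb. Its mRNA reached 128 and 132 CPM per kb after light, against 205 and 169 CPM per kb in the dark. AT1G22190 followed with 66.0 and 54.7 CPM per kb of mRNA after light, against 102 and 60.2 CPM per kb in the dark. AT4G39780 had 46.7 and 12.2 CPM per kb after light and 55.6 and 19.9 CPM per kb in the dark, and AT1G64380 had 44.2 and 16.4 CPM per kb after light and 54.1 and 19.2 CPM per kb in the dark. RAP2.4 and AT1G22190 did not overlap with each other or with these 2 genes in either condition, whereas AT4G39780 and AT1G64380 could not be ordered. Both of these were more than 2 times higher in repeat 1 than in repeat 2 in every group. AT1G36060, AT2G22200 and AT4G13620 were lower, with means between 4.88 and 6.40 CPM per kb after light and between 3.91 and 13.7 CPM per kb in the dark. AT1G36060 and AT2G22200 overlapped in both conditions. AT5G65130 was almost silent, with 12 and 7 coding mRNA reads after light and 13 and 9 in the dark.

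In ribosome-protected mRNA this order did not hold. RAP2.4 had 7.99 and 6.90 CPM per kb of ribosome-protected reads after light, against 34.6 and 13.4 CPM per kb in the dark. After light both of its libraries were below both libraries of AT1G22190, which had 10.5 and 11.05 CPM per kb, and in the dark the values of these 2 genes overlapped. AT1G64380, with 23.7 and 10.3 CPM per kb after light and 38.0 and 14.7 CPM per kb in the dark, and AT4G39780, with 22.2 and 7.35 CPM per kb after light and 38.6 and 16.6 CPM per kb in the dark, had the highest mean ribosome-protected levels of the group in both conditions. These means were carried by repeat 1, the groups overlapped with AT1G22190, and in repeat 2 after light AT1G22190 was above both. AT1G36060 had only 3 and 2 ribosome-protected coding reads after light and 10 and 5 in the dark, and both of its libraries were below both of AT2G22200 in each condition. AT5G65130 had 0 and 5 such reads after light and 1 and 2 in the dark. Summed over the group, RAP2.4 supplied 11.6% and 15.8% of the ribosome-protected CPM after light and 24.5% and 19.9% in the dark, against 45.4% and 61.7% of the mRNA CPM after light and 49.7% and 61.8% in the dark. The 3 long-leader genes together made up 24.5% to 42.0% of the ribosome-protected CPM over the 4 libraries, against 66.7% to 83.1% of the mRNA CPM.

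**Figure D1:**
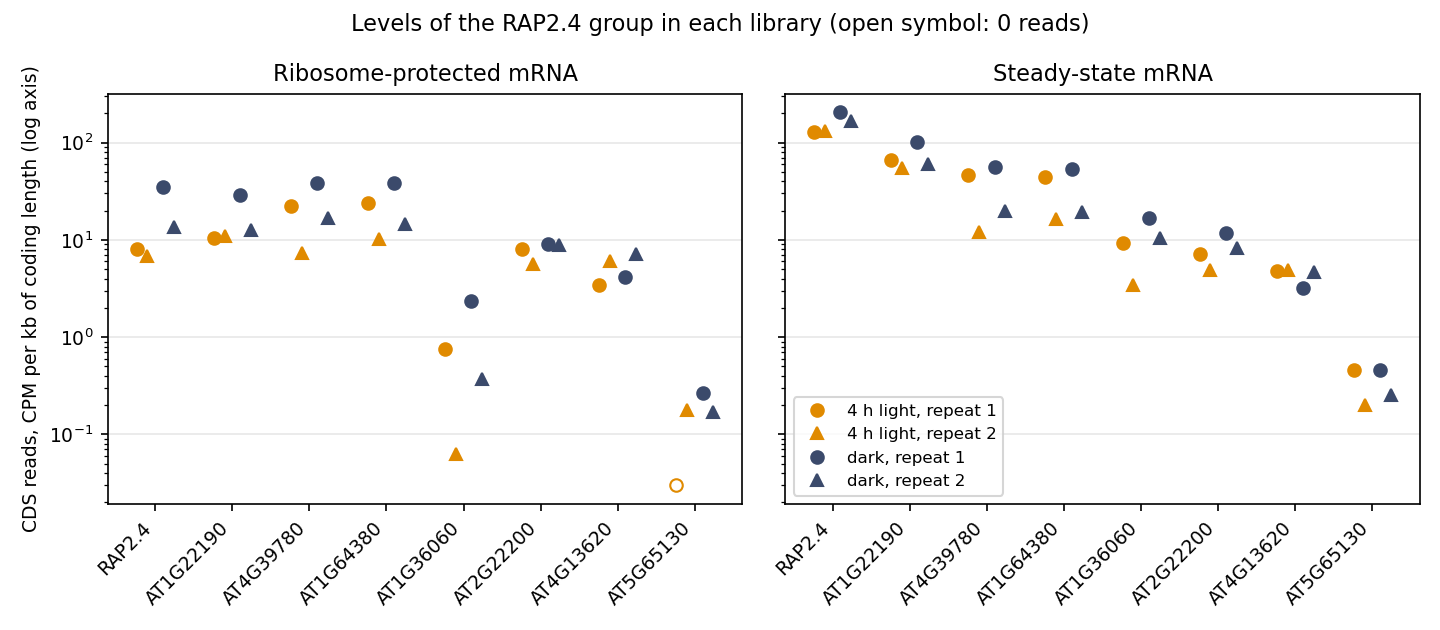
Coding reads of the 8 genes in each library, as CPM per kb of coding length on a log axis, with ribosome-protected mRNA at left and steady-state mRNA at right. Orange marks 4 h light and blue marks dark, circles and triangles mark repeats 1 and 2, and the open symbol marks the library with 0 reads of AT5G65130. RAP2.4 leads in mRNA, at 128 to 205 CPM per kb, and lies between 6.90 and 34.6 CPM per kb in ribosome-protected mRNA.

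The ratio of ribosome-protected to mRNA CPM, which reflects how many ribosome-covered fragments an mRNA gave, was low in the 3 long-leader genes in every repeat. For RAP2.4 the ratio was 0.0623 and 0.0522 after light, and 0.168 and 0.0796 in the dark. The fitted log2 ratio was -4.14 ± 0.49 (SE) after light, with 272 of 19823 tested genes lower, and -2.98 ± 0.46 in the dark, with 395 lower. The median gene had a log2 ratio of 0.01 in both conditions. The TMM scaling sets this median near 0, so each ratio is relative to other genes. A shift of most genes together would not show. AT1G22190 had ratios of 0.159 and 0.202 after light and 0.281 and 0.211 in the dark, or a fitted log2 ratio of -2.48 ± 0.45 after light (588 genes lower) and -1.99 ± 0.44 in the dark (929 genes lower). Both fitted values of AT1G22190 were below the 5th percentile of all tested genes, which was -1.84 after light and -1.94 in the dark. AT1G36060 had ratios of 0.0801 (exact 95% interval of the read counts 0.0164 to 0.236) and 0.0183 (0.00219 to 0.0674) after light, and 0.140 (0.0665 to 0.259) and 0.0357 (0.0115 to 0.0840) in the dark. These intervals cover counting error only, and with 2 to 10 ribosome-protected reads a library the ratio of AT1G36060 is known only to be low. Its fitted log2 ratio was -5.07 ± 1.34 after light and -3.60 ± 1.10 in the dark.

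The other genes with enough reads lay nearer to the median gene, on either side of it. AT2G22200 had ratios of 1.13 and 1.15 after light and 0.770 and 1.09 in the dark. AT4G13620 had 0.711 and 1.24 after light and 1.32 and 1.54 in the dark. AT1G64380 had 0.535 and 0.624 after light and 0.703 and 0.768 in the dark, and AT4G39780 had 0.475 and 0.603 after light and 0.694 and 0.836 in the dark. These 4 genes were all above the 3 long-leader genes in every repeat of both conditions. The counts of AT5G65130 were too low for a ratio, since its intervals reached from 0.0136 to 3.85 in the dark repeat 1 and from 0.222 to 3.25 in the light repeat 2. With 1 library left out, the log2 ratio after light ran from -2.004 to 0.23 in AT4G39780 and from -1.56 to 0.01 in AT1G64380. Among other ERF factors, the median log2 ratio was -0.50 after light and -0.60 in the dark over the 2 other group I factors, 0.29 after light and 0.76 in the dark over 5 factors of group VII, and -1.03 after light and -1.01 in the dark over 4 factors of group II. The lowest of group VII, AT3G16770, had -2.48 ± 1.53 (SE) after light and -2.04 ± 1.51 in the dark, values as low as those of AT1G22190.

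**Figure D2:**
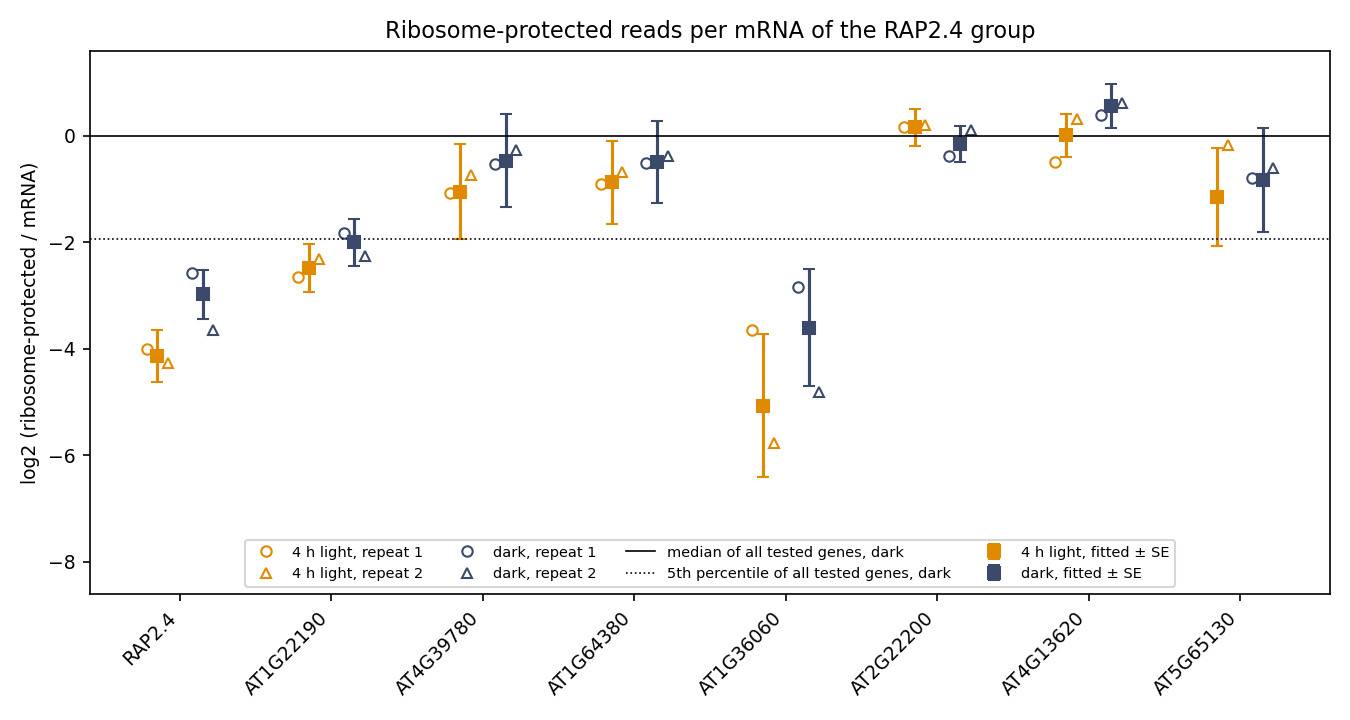
Log2 ratio of ribosome-protected to mRNA CPM for each gene, with 4 h light (orange) left of dark (blue). Squares with bars are the fitted value ± SE, open symbols are the repeats, and lines give the median and the 5th percentile of all tested genes in the dark; the repeat of AT5G65130 with 0 ribosome-protected reads is not drawn. RAP2.4, AT1G22190 and AT1G36060 lie lowest in both conditions.

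The ratio of RAP2.4 was lower after light than in the dark in both repeats, with log2 differences of -1.42 in repeat 1 and -0.60 in repeat 2. The fitted difference between light and dark in its log2 ratio was -1.16 ± 0.61 (SE), and 2.81% of all genes had a lower value. The difference depends on the dark libraries, since the dark log2 ratio was -3.80 without the first ribosome-protected dark library and -2.44 without the second, while the light ratio stayed between -4.24 and -4.03 with any 1 library left out. AT1G22190 differed by -0.81 and -0.06 in the 2 repeats, AT1G64380 by -0.39 and -0.30, AT4G39780 by -0.54 and -0.47, and AT4G13620 by -0.88 and -0.31. In AT2G22200 the difference had the other sign, 0.55 and 0.08. In the 7 genes other than RAP2.4 the SE of the fitted difference exceeded its size.

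Among all genes, longer leaders and upstream ATGs went with lower ratios, and the 3 RAP2.4-group genes lay in the lower part even of their own length class. The 642 tested genes with a leader of at least 400 bases had a median log2 ratio of -0.70 after light and -0.65 in the dark. Of these, 25 were lower than RAP2.4 after light and 38 in the dark, 57 were lower than AT1G22190 after light and 73 in the dark, and 20 were lower than AT1G36060 after light and 25 in the dark. Genes with at least 1 upstream ATG had a median of -0.32 after light and -0.29 in the dark (6200 genes), against 0.21 in both conditions for 11791 genes without one. For the 358 genes with at least 6 upstream ATGs, the number found in AT1G36060, the median was -0.84 after light and -0.80 in the dark. Both features went together: the median leader was 78 bases without an upstream ATG, 188 with at least 1 and 447 with at least 6. Of the 642 long-leader genes, 610 held an upstream ATG. The part of either feature in the ratios of the RAP2.4 group was not tested.

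**Figure D3:**
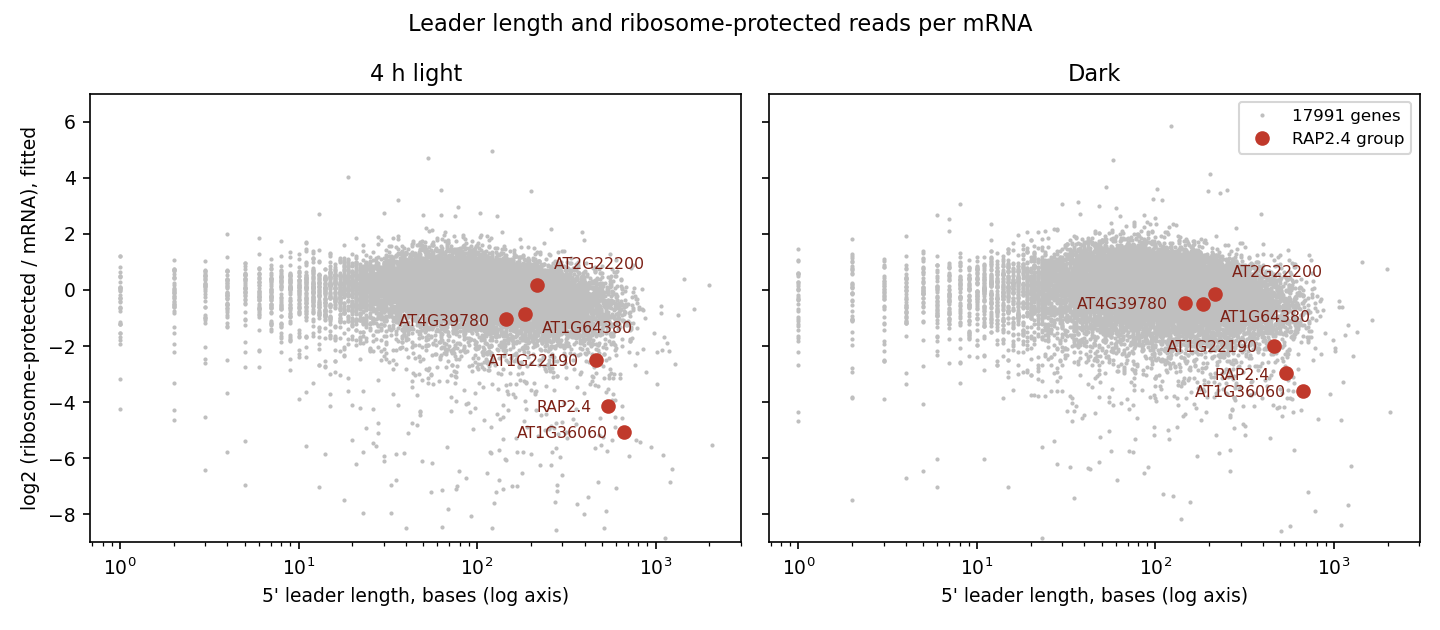
Length of the deposited 5' leader (log axis, bases) against the fitted log2 ratio of ribosome-protected to mRNA CPM, for 4 h light at left and dark at right. Grey points are the 17991 tested genes whose leader was scanned, of which 3 lie outside the axis of the plot, and red points are the 6 genes of the RAP2.4 group among them. AT1G22190, RAP2.4 and AT1G36060, with leaders of 463, 541 and 669 bases, lie at the lower right.

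The ribosome-protected reads of RAP2.4 were spread over the transcript more like mRNA than those of most genes. Its leader held 6 and 52 ribosome-protected reads after light and 51 and 47 in the dark, which was 13.95% and 17.8% of its ribosome-protected reads after light and 21.7% and 18.9% in the dark. In its mRNA the leader took 23.5% and 23.1% of the reads after light and 23.2% and 22.01% in the dark. Over the whole libraries, leaders took 1.39% to 2.56% of ribosome-protected reads and 4.94% to 5.55% of mRNA reads. Ribosome-protected reads per mRNA read in the leader, relative to the coding sequence, placed RAP2.4 at percentiles 85.8 and 81.2 after light and 91.8 and 81.2 in the dark, among the 6038 to 7335 genes with enough reads. This rank divides by the coding ratio, which was part of the choice of genes and is very low in RAP2.4. A low coding ratio by itself raises the rank, and the compared genes were not matched for it. The leader itself was still poor in ribosome-protected reads per mRNA read: that ratio put RAP2.4 at percentiles 6.72 and 0.327 after light and 22.2 and 1.99 in the dark. Relative to mRNA, the leader held fewer ribosome-protected reads than the coding sequence in all 4 comparisons, with log2 differences of -1.10 and -0.81 after light and -0.24 and -0.59 in the dark, where the median gene lay between -3.10 and -1.90.

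The 3' UTR of RAP2.4 held 3 and 6 ribosome-protected reads after light and 28 and 10 in the dark, or 6.98% and 2.05% of its ribosome-protected reads after light and 11.9% and 4.02% in the dark. Whole libraries had 0.613% and 0.247% after light and 1.63% and 0.566% in the dark. Relative to its coding sequence and its mRNA, this 3' UTR share put RAP2.4 at percentiles 99.2 and 98.5 after light and 98.3 and 97.1 in the dark, among 9902 to 11684 genes. The 3' UTR rank divides by the low coding ratio as well. The part of fragments other than ribosome footprints in these reads was not tested. In AT1G22190 the leader-over-coding percentiles were 76.1 and 50.3 after light and 86.3 and 66.2 in the dark, from 4 and 25 leader reads beside 35 and 293 coding reads in ribosome-protected mRNA after light, and 25 and 19 beside 101 and 142 in the dark. Its leader held 7.81% of ribosome-protected reads in repeat 2 after light and 18.4% and 11.6% in the dark, against 20.7% to 23.7% of its mRNA reads over the 4 libraries. AT1G36060 had 0 and 3 ribosome-protected leader reads after light and 5 and 3 in the dark, beside the few coding reads given above. In AT2G22200, AT4G39780 and AT1G64380 the leader held 0 to 17 ribosome-protected reads a library, at most 5.19% of a gene's reads, against 7.07% to 14.1% of mRNA reads. Their mRNA leader shares were lower too, and relative to mRNA some ranks of these leaders were high as well. AT4G39780 stood at percentiles 83.5 and 69.9 in the dark and 28.7 in repeat 1 after light. AT1G64380 stood at 77.9 and 70.3 after light and 66.4 and 56.8 in the dark, and AT2G22200 at 22.6 in dark repeat 2. Within the same repeat and condition, RAP2.4 ranked above each of them. In the 3' UTR, AT1G64380 stood at percentiles 66.2 and 93.8 after light and 65.2 and 56.2 in the dark, and AT4G39780 at 38.9 and 87.3 after light and 57.1 and 8.49 in the dark, from 0 to 6 reads a library in both genes. AT1G22190 stood there at 92.9 and 81.4 after light and 89.9 and 88.1 in the dark, from 1 to 10 reads a library. AT2G22200 stood at 53.6 and 14.9 after light and 55.0 and 77.9 in the dark, from 0 to 2 reads. All 4 values of RAP2.4 in the 3' UTR were above all of these.

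**Figure D4:**
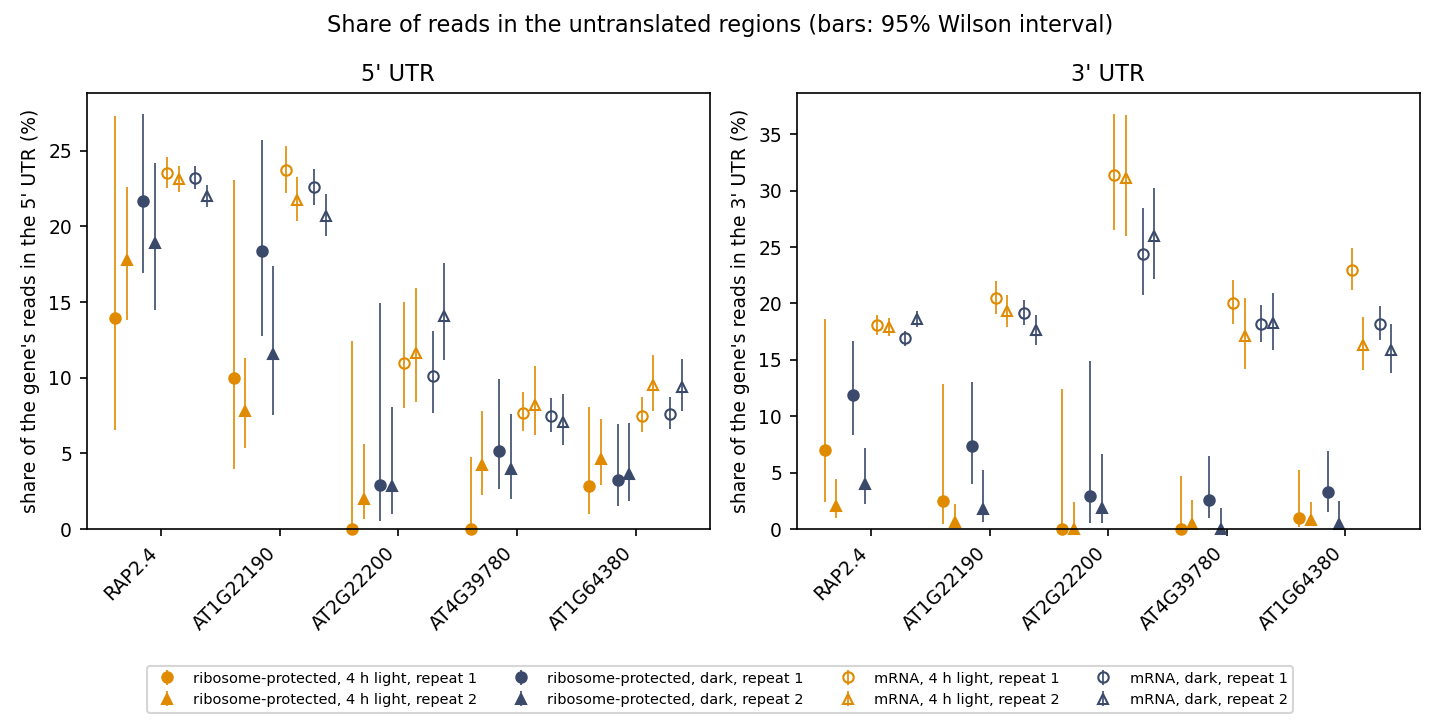
Share of each gene's reads in the 5' UTR (left) and in the 3' UTR (right), in percent of its 5' UTR, coding and 3' UTR reads. Filled symbols are ribosome-protected and open symbols mRNA libraries, orange is 4 h light and blue dark, circles and triangles are repeats 1 and 2, and bars are 95% Wilson intervals, which cover counting error only. The ribosome-protected 5' UTR share of RAP2.4 is 13.95% to 21.7%, below its mRNA share of 22.01% to 23.5% in every pair. Its interval excludes the paired mRNA share only in repeat 2 after light.

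Whether 4 h of light changed the group was tested by a quasi-likelihood fit in edgeR over all 8 libraries. P-values were adjusted by Benjamini-Hochberg over the 19823 genes. The fit held no term for the repeat number, and the counts from a fit with such a term are given at the end. In steady-state mRNA 0 of the 8 genes passed at 0.05, against 4.78% of all tested genes (3.34% higher and 1.44% lower after light). None had an unadjusted p under 0.05 and none passed in DESeq2, which called 10.9% of its genes. The values of 7 of the 8 genes were on the lower side, as were 48.96% of all genes, with a median log2 change of -0.39 against 0.01 over all genes, and 4 of the 8 had light and dark libraries that did not overlap, against 46% of all genes. RAP2.4 had 129 and 133 CPM of mRNA after light, against 207 and 169 CPM in the dark. Both light libraries lay below both dark ones, and the fitted change was -0.52 ± 0.42 (adjusted p = 0.601). AT1G36060 had 8.85 and 3.24 CPM after light, against 15.96 and 9.85 CPM in the dark, also without overlap, for a change of -1.10 ± 0.90 (adjusted p = 0.604). AT2G22200 had 5.64 and 3.86 CPM after light, against 9.26 and 6.47 CPM in the dark. Its repeats agreed most closely, at -0.71 and -0.73, and the fitted change was -0.73 ± 0.33 (adjusted p = 0.309). AT4G13620 was the only one of the 8 with a value above 0, at 5.64 and 5.74 CPM after light, against 3.71 and 5.42 CPM in the dark, or 0.32 ± 0.40 (adjusted p = 0.767). The fitted changes of AT1G22190, AT4G39780, AT1G64380 and AT5G65130 lay between -0.42 and -0.14, and their libraries overlapped. For AT4G39780, AT1G64380 and AT5G65130 the sign turned when the second mRNA light library or the first mRNA dark library was left out, up to 0.50, 0.60 and 0.33 in that order, and for AT4G13620 it turned, to about 0, without the first mRNA dark library.

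In ribosome-protected mRNA 0 of the 8 genes passed as well, against 6.84% of all tested genes (4.71% higher and 2.12% lower after light). All 8 values were on the lower side, as were 52.0% of all genes, with a median log2 change of -0.78 against -0.03 over all genes, and 3 of the 8 had groups that did not overlap, against 49.3% of all genes. RAP2.4 had 8.03 and 6.93 CPM of ribosome-protected mRNA after light, against 34.8 and 13.5 CPM in the dark. Both light libraries were lower than both dark ones, by 2.10 (log2) in repeat 1 and 0.95 in repeat 2. The fitted change was -1.68 ± 0.45 (SE) (edgeR unadjusted p = 0.00808, edgeR adjusted p = 0.0809), and no other gene of the group had an unadjusted p under 0.05. DESeq2, which called 13.8% of its genes, called this 1 gene of the 8 (adjusted p = 0.00614), and over the alternatives the adjusted p ran from 0.00614 to 0.366. The size rests on the dark libraries: the change was -2.22 ± 0.29 without the second ribosome-protected dark library (edgeR adjusted p = 0.0490) and -0.86 ± 0.30 without the first (edgeR adjusted p = 0.256). In these fits the lone dark library is assumed to vary like the other groups. Of the ribosome-protected libraries, the first dark one had the largest 3' UTR share of RAP2.4 reads, 11.9%, and of all reads, 1.63%. The part of fragments other than ribosome footprints in its coding reads was not tested. AT1G22190 had 8.27 and 8.68 CPM after light, against 22.5 and 9.98 CPM in the dark. Its groups did not overlap, but the dark libraries differed more from each other than the second one did from the light libraries, and the fitted change was -0.91 ± 0.44 (adjusted p = 0.302). AT2G22200 had 6.38 and 4.45 CPM after light, against 7.13 and 7.03 CPM in the dark, for a change of -0.42 ± 0.35 (adjusted p = 0.573). AT4G39780, AT1G64380 and AT4G13620 overlapped between light and dark, with fitted changes of -0.94 ± 0.90, -0.65 ± 0.79 and -0.23 ± 0.41. For AT1G64380 the sign turned without the first ribosome-protected dark library, to 0.18, and for AT4G13620 without the first light or the second dark one, to 0.09 and 0.23. The ribosome-protected counts of AT1G36060 and AT5G65130 were too few to give the change a size.

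**Figure D5:**
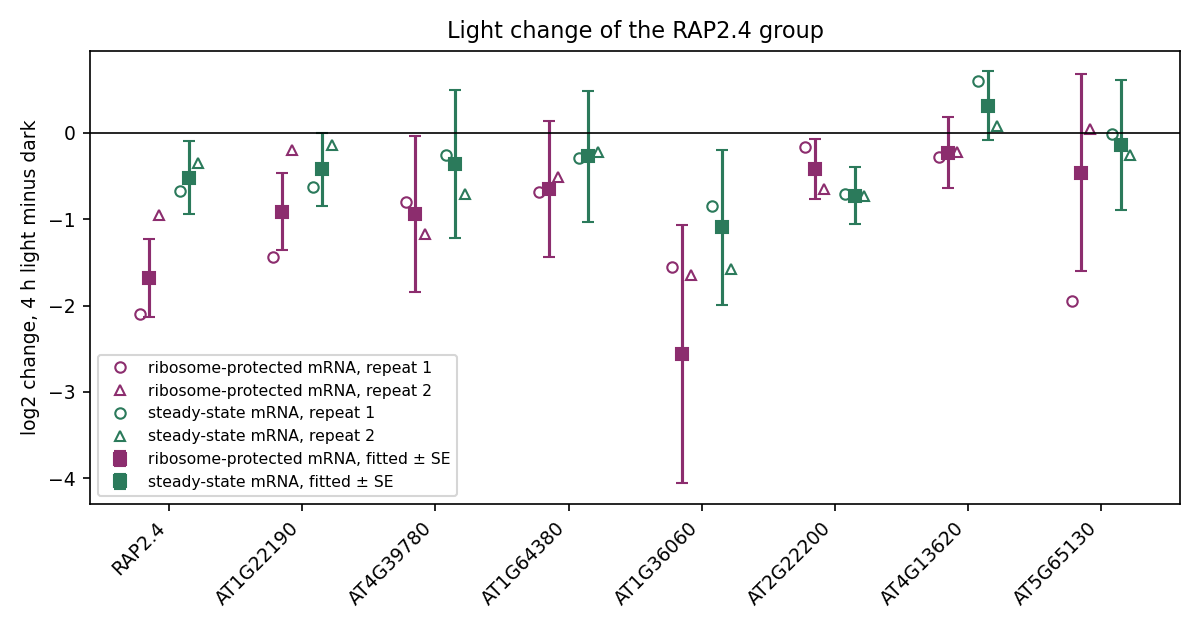
Log2 change after 4 h light relative to dark for each gene, in ribosome-protected mRNA (purple) and steady-state mRNA (green). Squares with bars are the fitted change ± SE and open symbols are the repeats. The ribosome-protected change of RAP2.4, -1.68 ± 0.45, lies below its mRNA change, -0.52 ± 0.42, and none of the 16 values passed the edgeR test.

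By profile over the 8 libraries (Euclidean distance between centred log2 CPM), the gene nearest to RAP2.4 among 9911 genes of at least median level was AT2G31280, whose annotated symbol is CPUORF7, a name given to conserved peptide upstream open reading frames. Its distance was 0.378, where the median gene had 5.80, and its log2 ratio of ribosome-protected to mRNA reads was -3.93 after light and -3.12 in the dark. AT1G13350 and AT1G48540 came next, at 1.03 and 1.05. AT1G22190 was farther, at 2.11, with 35 genes closer to RAP2.4. The nearest to AT1G22190 were AT4G39270, AT3G26890 and AT1G26580, at 0.479 to 0.728. AT4G39780 and AT1G64380 resembled each other, at a distance of 0.643, with 5 genes closer to AT4G39780 and 13 closer to AT1G64380. These distances describe the 8 libraries and include their depth and repeat differences.

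The promoters of the group, 250 bases before to 50 bases after the annotated start in TAIR10.1, were searched for 5 motifs. On both strands, GATAA (the I-box core) occurred in 5 of 8 promoters, against 60.8% of 26689 promoters. GCCGCC, the core of the GCC box that many ERF factors bind, occurred in 1 of 8, AT4G39780, against 2.71%. CCGAC, the core that DREB factors bind, occurred in 0 of 8, against 15.3%. CACGTG (the G-box) and AAAATATCT (the evening element) were in 0 of 8, against 7.85% and 2.79%.

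Lists of genes linked to the group by family or by known function were mostly not called either. Over 9 lists, 4 of 77 tested genes passed in mRNA by edgeR (3 higher and 1 lower). In ribosome-protected mRNA 3 of 77 passed (2 higher and 1 lower). These edgeR shares were near those of all genes. DESeq2 called 15 and 17 of the listed genes, larger shares than the 10.9% and 13.8% it called of all its genes. The counts thus depend on the tool. The share of all genes at an unadjusted p under 0.05 was not computed, so the unadjusted counts of the lists have no background beside them. Leaving out 1 library left 0 mRNA calls without any 1 of the mRNA libraries or ribosome-protected light libraries, and 1 without either ribosome-protected dark library. In ribosome-protected mRNA it left 0 calls without the second light or either dark library of that kind, 1 without the first light library and 2 without any mRNA library.

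Plastid antioxidant enzymes, whose genes RAP2.4-type factors are known to regulate, held 2 of 14 genes that rose in mRNA (4 at an unadjusted p under 0.05, 3 by DESeq2), where 3.34% of all genes rose. GPX7 and NTRC were called in both kinds of RNA, and in ribosome-protected mRNA they were 2 of 14 (5 unadjusted, 5 by DESeq2), where 4.71% of all genes rose. NTRC, which reduces peroxiredoxins with NADPH, had 108 and 144 CPM of mRNA after light, against 20.4 and 33.9 CPM in the dark, a rise of 2.21 ± 0.41 (edgeR adjusted p = 0.0356). GPX7, a glutathione peroxidase, had 3.65 and 10.12 CPM after light, against 0 and 0.119 CPM in the dark, a fitted rise of 6.65 ± 1.18 (edgeR adjusted p = 0.0313) that rests on few dark reads. The median log2 change of the list was 0.97 in mRNA and 1.13 in ribosome-protected mRNA. Of 12 tested DREB factors and drought or cold response genes, CBF3, a cold-response activator, rose by 3.38 ± 0.61 in mRNA (edgeR adjusted p = 0.0326), with 0.952 and 1.55 CPM after light, against 0.0593 and 0.166 CPM in the dark, again few reads. None of that list passed in ribosome-protected mRNA (3 at an unadjusted p under 0.05, 0 by DESeq2). Of 4 ERF factors of group II, DEAR1 fell by 2.00 on the log2 scale (SE 0.38, edgeR adjusted p = 0.0376), with 1.46 and 1.17 CPM after light, against 5.55 and 4.97 CPM in the dark. No gene of group II passed in ribosome-protected mRNA (1 unadjusted, 1 by DESeq2).

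Among regulators of regeneration and callus, where WIND1 acts, 0 of 12 tested genes passed in mRNA (4 at an unadjusted p under 0.05, 2 by DESeq2). In ribosome-protected mRNA LBD29, a callus factor, fell by 1.96 (log2, SE 0.39, edgeR adjusted p = 0.0350), with 2.60 and 4.09 CPM after light, against 11.8 and 15.1 CPM in the dark. RAP2.6L, the most abundant member of that list, had 16.2 and 4.88 CPM of mRNA after light and 26.6 and 7.73 CPM in the dark. Type A cytokinin response regulators had a median log2 mRNA change of 0.97 with 0 of 8 passing (5 unadjusted, 1 by DESeq2), and ARR4, the most abundant, had 55.8 and 63.5 CPM after light and 18.5 and 38.6 CPM in the dark. In ribosome-protected mRNA their median was 0.91, with 0 passing (4 unadjusted, 3 by DESeq2). Ethylene receptors and signalling genes had a median of -0.68 in mRNA with 0 of 11 passing (4 unadjusted, 2 by DESeq2), and of -0.82 in ribosome-protected mRNA with 0 passing (5 unadjusted, 3 by DESeq2). EIN3, the master transcription factor of ethylene responses, had 340 and 162 CPM of mRNA after light and 610 and 238 CPM in the dark. Group VII ERF factors had 0 of 5 passing in mRNA (0 unadjusted, 0 by DESeq2) and in ribosome-protected mRNA (2 unadjusted, 1 by DESeq2), with RAP2.12, an oxygen-sensing factor, at 257 and 203 CPM after light and 308 and 200 CPM in the dark. Cuticular wax genes had 0 of 9 passing in mRNA (3 unadjusted, 4 by DESeq2) and in ribosome-protected mRNA (3 unadjusted, 3 by DESeq2), with KCS6, a wax fatty-acid elongase, at 682 and 917 CPM after light and 614 and 655 CPM in the dark. The 2 other group I factors, ERF053 and AT4G28140, did not pass in either (1 and 0 unadjusted, 0 by DESeq2), and ERF053 had 1.81 and 2.29 CPM of mRNA after light and 2.97 and 2.85 CPM in the dark.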

How the data were processed

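Reads were mapped to TAIR10 per the submitters' processing notes; no aligner or counter can be named (not given in the sources used here). Per the file headers, both deposited files list for each gene the read counts in its 5' UTR, coding sequence and 3' UTR, the length of each region, and the authors' RPKM. The 16 RPKM columns of untranslated regions were not used, and coding RPKM served only to check which read total the authors divided by. Repeat 1 and repeat 2 came from separate tables with the same gene rows, and no pair of libraries was identical.

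Coding counts of all 8 libraries were fitted in R 4.3.3 with edgeR 4.0.16 (filterByExpr, TMM, quasi-likelihood test, 1 mean per group), with Benjamini-Hochberg adjustment over 19823 genes at 0.05. TMM factors were 0.824 to 1.26 and the biological coefficient of variation was 0.391. Per-repeat log2 changes used a prior count of 2, ratios of CPM used none. Standard errors were derived from the F statistic. DESeq2 1.42.0, other scalings and filters, a replicate block, subsets of libraries and all 3 regions summed were alternatives. The edgeR fit was tested on simulated data with less spread than these libraries and no repeat effect. That check does not show how small a change the fit can detect here.

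UTR shares count the reads of a region over all 3 regions. Their percentiles used genes with at least 50 mRNA reads in that region and 20 ribosome-protected coding reads, with 0.5 added. Coordinates and sequences are from RefSeq's TAIR10.1, whose coding lengths equalled the deposited ones for 96.6% of 26690 nuclear genes and for all 8 members.

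The members and the gene lists were chosen with earlier results of these data known. Named genes were the 8 members, the 3 nearest profiles of a member, and from each list the 2 genes of smallest adjusted p that passed in mRNA, or else the most abundant; LBD29, AT4G28140, AT3G16770 and the markers were named outside that rule, with their values seen.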

Additional observations from a re-analysis of the deposited data

Results flagged for a closer look

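AT4G13620 differed between the kinds of RNA in the direction of its light change. In ribosome-protected mRNA its log2 change after light was -0.28 in repeat 1 and -0.23 in repeat 2, and in steady-state mRNA it was 0.60 and 0.08. Paired by repeat number, both ribosome-protected values were below 0 and both mRNA values above it. The ribosome-protected light and dark groups overlapped, and with 1 library left out the change turned sign in both kinds of RNA, to 0.23 in ribosome-protected mRNA and to -0.0016 in mRNA. The fitted difference between the changes was -0.55 ± 0.57 (SE), and it was not tested. The ribosome-protected libraries held 17 and 241 coding reads of the gene after light and 22 and 119 in the dark, so the first repeat rests on few reads.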

How the results depend on the processing

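The counts of called genes depended on the tool and the design. Of the 8 genes, DESeq2 called 0 in mRNA and 1 in ribosome-protected mRNA (RAP2.4), and leaving out each library gave 0 to 0 in mRNA and 0 to 1 in ribosome-protected mRNA. Of the listed genes, against 4 in mRNA and 3 in ribosome-protected mRNA, DESeq2 called 15 and 17, the 4 libraries of 1 kind alone gave 0 and 2, and leaving out each library gave 0 to 1 and 0 to 2. The other scaling, no filter and all 3 regions summed moved none of these 4 counts by over 1.5 times. With 1 library left out, log2 light changes turned sign in some cases: in mRNA AT4G39780 ranged from -1.63 to 0.50 and AT1G64380 from -1.15 to 0.60. AT4G13620 ranged in mRNA from -0.0016 to 0.60, and AT5G65130 from -0.82 to 0.33. In ribosome-protected mRNA AT1G64380 ranged from -1.34 to 0.18 and AT4G13620 from -0.75 to 0.23. The log2 ratio of ribosome-protected to mRNA reads stayed at or below -1.50 for AT1G22190 and at or below -2.44 for RAP2.4 under every alternative run in both conditions, while with 1 library left out those of AT4G39780 and AT1G64380 after light reached -2.004 and -1.56. The cause of these differences was not tested. Depth limits AT1G36060 and AT5G65130 most.

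With the repeat number as a replicate block, 2 of the 8 genes were called in mRNA (AT1G36060 and AT2G22200, both lower after light) and 3 in ribosome-protected mRNA (RAP2.4, AT1G64380 and AT4G39780, all lower), beside 33.6% and 32.0% of all tested genes. The block called 43 listed genes in mRNA and 41 in ribosome-protected mRNA. The biological coefficient of variation was 0.170 with the block, against 0.391 without it. The labels do not say what the number marks, and there are only 2 pairs. Libraries of the same number came from the same deposited table. Between groups, the deviations of libraries with the same number had correlations of 0.575 to 0.806 across genes.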
